A study of Homo sapiens with 28 samples.

Results

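SOX9 and its relatives SOX4, SOX12 and SOX13 were followed through 28 RNA libraries from LNCaP cells, an androgen-responsive line of human prostate cancer. These 4 genes were taken by symbol from a table of 61815 genes, and SOX9 was picked because its response to androgen was larger when an inhibitor of CDK8 and CDK19 was present. Its values are therefore given as a description with no test, as are the androgen effects and interactions of the other members. All 4 members passed the filter on low counts in both experiments.

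SOX proteins are transcription factors that bind DNA through an HMG box, bend it and usually act with partner factors. They are sorted into lettered groups by the likeness of that box. SOX9, of the SOXE group with SOX8 and SOX10, directs cartilage and testis formation and is used by progenitors of the developing prostate, and it is raised in many prostate tumours. SOX4 and SOX12, with SOX11, form the SOXC group of factors used by progenitors and in tumours, and SOX13, with SOX5 and SOX6, belongs to the SOXD group, which has a coiled coil and no strong activation domain of its own.

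The cells had been kept for 72 h in charcoal-stripped serum, from which steroids have been removed, before treatment. In the 24 h experiment they received 0.1% DMSO (the vehicle), 1 µM Senexin B, 0.1 nM R1881 or both agents, with 3 libraries a group. In the 72 h experiment they received DMSO, 500 nM SNX631, 1 nM R1881 or both agents, with 4 libraries a group. R1881 is a synthetic androgen, and both compounds inhibit CDK8 and CDK19, kinases of a module that joins and leaves the Mediator complex of transcription. Doses are those of the labels, and the text of the study gives another one for Senexin B. Time, androgen dose, compound and experiment changed together and cannot be told apart, so the experiments are set side by side.

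Levels are in CPM, counts as a share of the library's total scaled by TMM, a normalisation that evens out composition between libraries. Totals ran from 9846595 to 33809419 counts, with a vehicle library of the 24 h experiment (replicate 3) deepest and 15248512 in the next. KLK3, the androgen-induced gene for prostate-specific antigen, rose with R1881 by a log2 fold change of 6.15 ± 0.14 at 24 h and 6.57 ± 0.18 at 72 h (SE, adjusted p = 4.71e-33 and 5.31e-39 by edgeR). The 9 luminal prostate markers summed to group means of 2950 to 5140 CPM, whereas the 4 basal markers stayed at or below 0.44 CPM and all were under 1 CPM. A summed list of 7 fibroblast markers stood at 104 to 118 CPM in the groups without R1881 and at 59.5 to 63.9 CPM with it, with 4 of the 7 under 1 CPM in every group. The 7 neuroendocrine markers summed to 41.8 to 43.8 CPM without R1881 and 21.6 to 26 CPM with it, and 5 of them were under 1 CPM in every group. Both sums moved with the androgen effects given below, and their part in them was not tested. The fibroblast sum came mainly from VIM, COL1A1 and COL3A1 (highest group means 90.2, 29.5 and 11.8 CPM). The neuroendocrine sum came mainly from ENO2 (20.9 to 42.7 CPM). All libraries are of 1 cell line, and in bulk RNA fewer cells with a marker and less of it per cell cannot be told apart.

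SOX9 (ENSG00000125398.8) lies on the forward strand of chromosome 17, positions 72121020 to 72126420 of GRCh38 in GENCODE 29. At 24 h its level was 3.51, 2.64 and 2.96 CPM in the vehicle libraries and 2.76, 2.44 and 2.16 CPM with Senexin B alone. R1881 brought it to 7.42, 6.70 and 5.07 CPM, and R1881 with Senexin B to 18.03, 12.95 and 14.4 CPM. The libraries with R1881 all lay above those without it, and those with both agents lay above all others of the experiment, while vehicle and Senexin B alone overlapped.

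At 72 h the 4 vehicle libraries held 2.92, 3.08, 4.05 and 2.69 CPM of SOX9 and those with SNX631 alone 1.90, 2.43, 2.37 and 2.18 CPM. With R1881 the values were 11.2, 7.94, 8.31 and 9.08 CPM, and with R1881 and SNX631 they were 16.6, 15.95, 16.1 and 17.5 CPM. No pair of groups overlapped within this experiment. SNX631 libraries were lowest in the absence of androgen and highest in its presence.

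**Figure D1:**
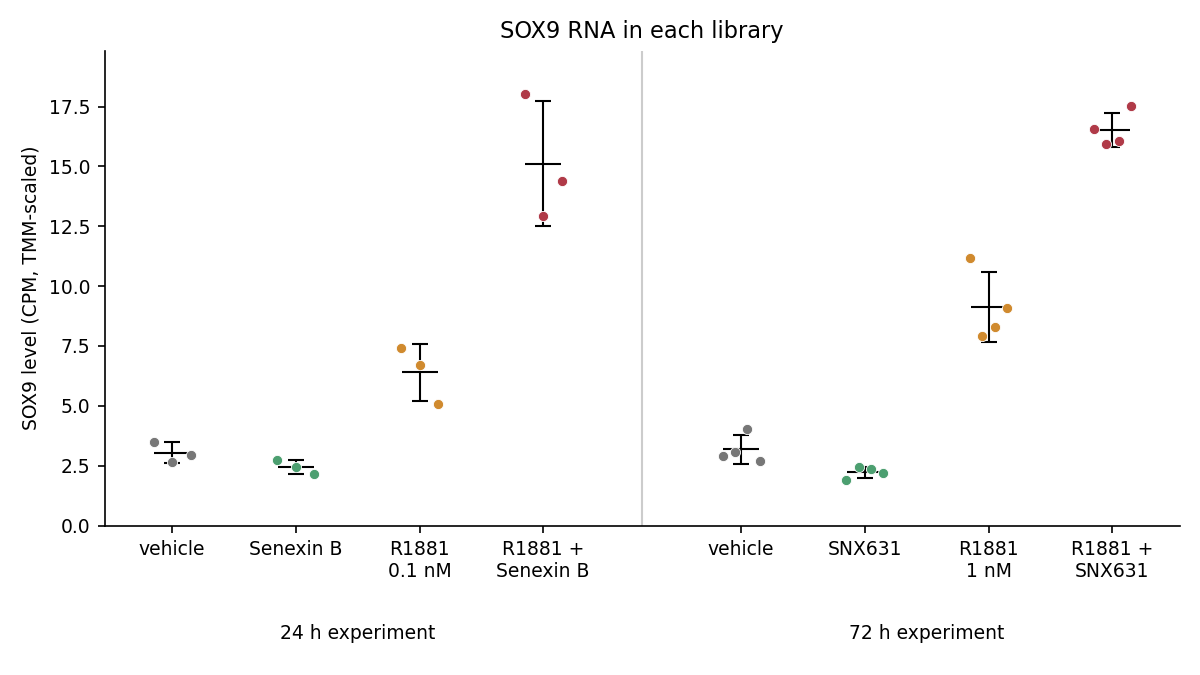
SOX9 level in CPM (vertical axis, from 0) in each of the 28 libraries by treatment group (horizontal axis), with 24 h groups left of the grey line and 72 h groups right of it. Points are libraries, wide bars are group means and whiskers are 1 SD, and the groups with both R1881 and an inhibitor stand highest at 15.1 and 16.5 CPM on average.

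Ordered by mean, SOX9 stood at 2.22 ± 0.24 CPM with SNX631 alone (SD, n = 4), 2.45 ± 0.30 with Senexin B alone (n = 3), 3.03 ± 0.44 in the 24 h vehicle group (n = 3) and 3.18 ± 0.60 in the 72 h vehicle group (n = 4). These 4 neighbours overlapped one after the other. The means with R1881 were 6.40 ± 1.20 CPM at 24 h (n = 3) and 9.13 ± 1.46 at 72 h (n = 4), apart from each other and from all groups without androgen. With an inhibitor and R1881 they were 15.1 ± 2.62 CPM (n = 3) and 16.5 ± 0.71 (n = 4), which overlapped. The highest mean was 7.45 times the lowest.

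As fitted changes, R1881 was followed by a SOX9 difference of 1.09 ± 0.17 on the log2 scale without inhibitor and 2.62 ± 0.18 with Senexin B at 24 h (SE), that is 2.13 and 6.15 times the level without androgen. At 72 h the differences were 1.50 ± 0.14 without inhibitor and 2.87 ± 0.15 with SNX631, or 2.83 and 7.31 times. The gap between these effects, the interaction, was 1.53 ± 0.25 at 24 h and 1.37 ± 0.20 at 72 h.

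Read along the other side of the design, the difference made by SNX631 in SOX9 changed sign with androgen. For Senexin B no sign is read without R1881, since its libraries overlapped those of vehicle. Without R1881 the difference was -0.28 ± 0.21 for Senexin B and -0.51 ± 0.18 for SNX631 on the log2 scale. With R1881 it was 1.25 ± 0.14 and 0.86 ± 0.09. The vehicle groups of the experiments differed by 0.09 ± 0.17, with overlapping libraries. Leaving out each library in turn left the interaction between 1.37 and 1.63 at 24 h and between 1.24 and 1.47 at 72 h.

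SOX9 was read thinly, with 22 to 240 counts a library. Counting error alone gives a coefficient of variation of 6.65 to 19.1% over the groups, and the observed one was 4.28 to 18.8%. Group by group the observed one was above counting with R1881 and Senexin B (17.3 against 7.58%). It was also above with R1881 alone (18.8 against 11.9% at 24 h, 15.9 against 9.99% at 72 h) and in the 72 h vehicle group (18.8 against 15.9%). In the other groups it was below, as with R1881 and SNX631 (4.28 against 6.65%). The gene on its opposite strand, SOX9-AS1, had at most 4.5 counts in any library.

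SOX4 (ENSG00000124766.7, chromosome 6, positions 21592768 to 21598619, forward strand) went the opposite way with both agents. It was the most abundant SOX gene, read with 1929 to 11496 counts a library. At 24 h the vehicle libraries held 333, 329 and 330 CPM, those with Senexin B 314, 310 and 318, those with R1881 300.4, 310 and 287, and those with both 177, 187 and 182 CPM. The last group lay far below the other three, among which R1881 and Senexin B alone overlapped.

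At 72 h SOX4 stood at 583, 586, 582 and 580 CPM in the vehicle group and at 696, 702, 715 and 774 CPM with SNX631 alone. R1881 libraries had 467, 450, 442 and 439 CPM, and those with R1881 and SNX631 had 284, 291, 286 and 309 CPM. All 4 groups were apart, with SNX631 alone at the top and SNX631 with R1881 at the bottom.

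**Figure D2:**
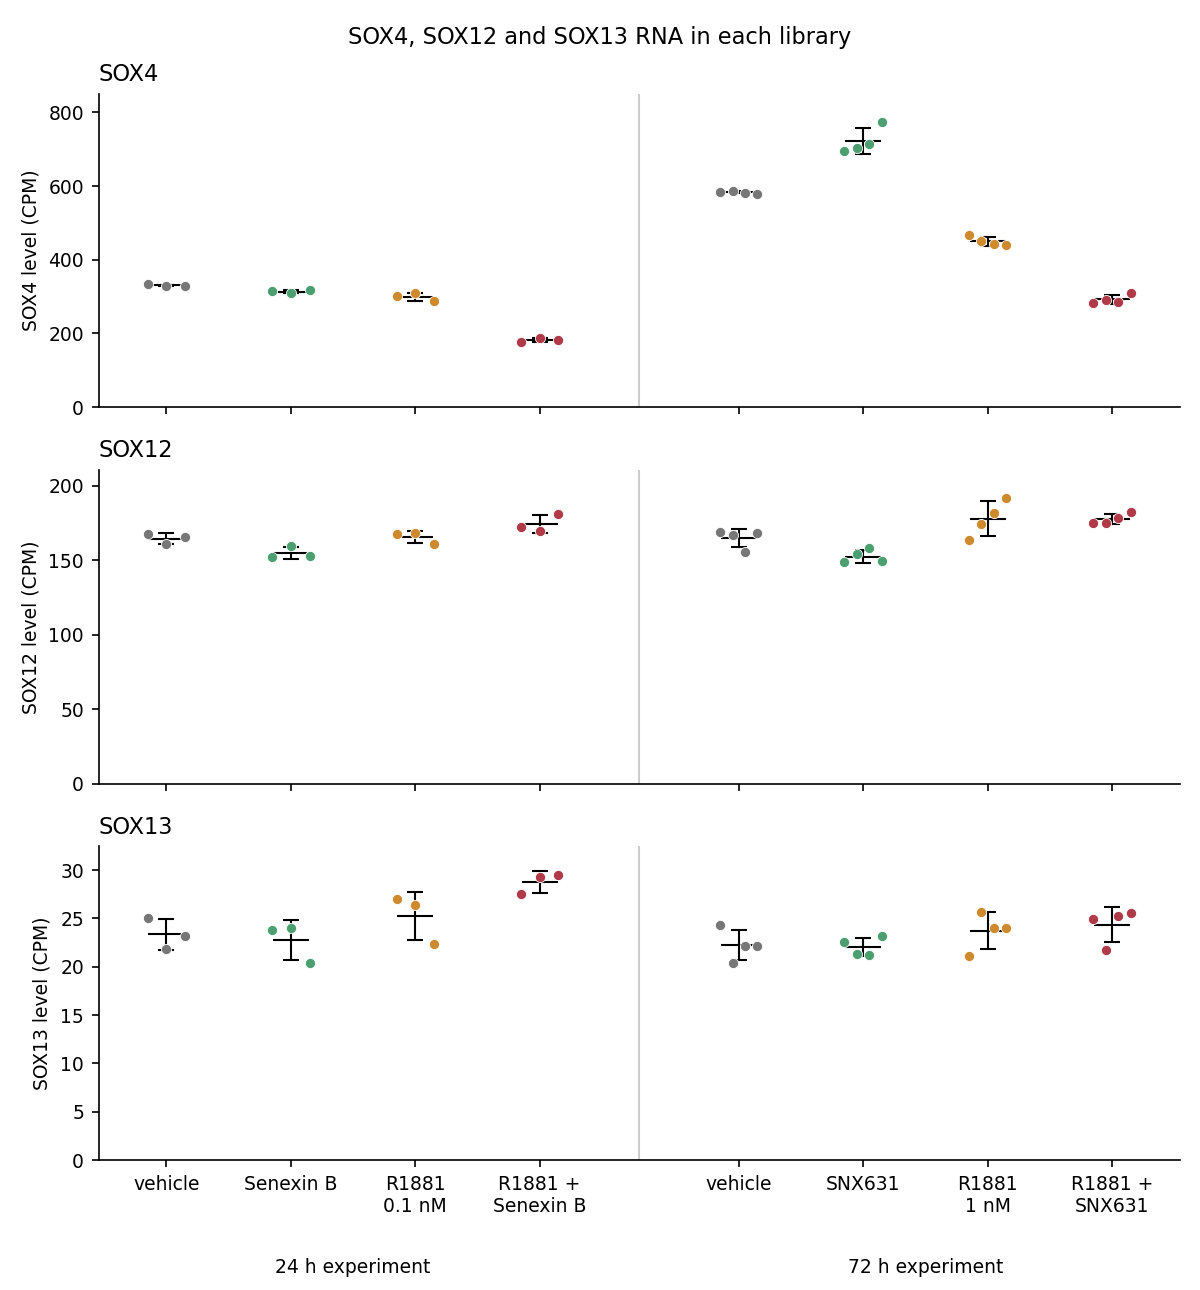
Levels of SOX4, SOX12 and SOX13 in CPM (vertical axes, each from 0) in the 28 libraries by treatment group, drawn as for SOX9 with points for libraries, wide bars for means and whiskers for 1 SD. SOX4 is lowest with both agents in each experiment (182 and 293 CPM on average), while SOX12 stays between 153 and 178 CPM and SOX13 between 22.1 and 28.8 CPM in group means.

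With R1881 present, Senexin B lowered SOX4 by 0.72 ± 0.04 on the log2 scale, to 0.607 of its level (SE, adjusted p = 1.60e-16, lower in all 3 libraries), and SNX631 lowered it by 0.63 ± 0.03, to 0.646 (adjusted p = 1.32e-19, lower in all 4 libraries). A gene was called changed at an adjusted p under 0.01 and a fold change over 1.5 in either direction, which 3.12% of all genes tested met for Senexin B and 4.12% for SNX631 in these contrasts. SOX4 was the only one of the 3 tested members that did so. These tests share their libraries with the contrasts through which SOX9 was picked, and the members were chosen with earlier results of these data known. The SOX4 tests are therefore no independent support for the SOX9 pattern. The difference between the experiments in this effect was 0.10 (95% interval 0.01 to 0.19, adjusted p = 0.242), in a contrast with 0.21% of genes called.

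Without R1881 the values of the experiments lay on either side of 0. The Senexin B value was -0.08 ± 0.03 (adjusted p = 0.061), with all 3 libraries a little under the vehicle range. The SNX631 value was 0.30 ± 0.03 (adjusted p = 1.36e-11), with all 4 libraries above the vehicle range, and its 1.24-fold size is under the fold limit. The difference of these effects was 0.38 ± 0.04 (adjusted p = 4.21e-08), also under the fold limit, which 0.474% of genes passed in that contrast. The vehicle groups themselves were apart, with SOX4 1.76-fold higher at 72 h (log2 0.82 ± 0.03, adjusted p = 7.92e-26, a contrast in which 5.97% of genes were called).

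As a description, the SOX4 difference with R1881 was -0.15 ± 0.03 on the log2 scale without inhibitor and -0.79 ± 0.03 with Senexin B at 24 h. At 72 h it was -0.38 ± 0.03 without inhibitor and -1.32 ± 0.03 with SNX631. The interactions were -0.64 ± 0.05 and -0.93 ± 0.04, against the positive ones of SOX9. In group order SOX4 ran from 182 CPM with R1881 and Senexin B to 722 CPM with SNX631 alone, a ratio of 3.97. These ends come from different experiments, whose vehicle groups were themselves 1.76-fold apart. Within an experiment the group means ran from 182 to 331 CPM at 24 h and from 293 to 722 CPM at 72 h. Over all groups the neighbours that overlapped were R1881 with SNX631, R1881 at 24 h and Senexin B alone. An antisense transcript annotated over SOX4, AL512380.2, had at most 13 counts in a library.

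SOX12 (ENSG00000177732.9, chromosome 20, positions 325595 to 330224, forward strand) is the SOXC relative of SOX4 and showed none of its swing. Its lowest and highest libraries held 149 and 192 CPM, and its group means spanned a ratio of 1.17. Its mean was lowest with an inhibitor alone, at 155 ± 4.18 CPM for Senexin B (n = 3) and 153 ± 4.42 for SNX631 (n = 4), and highest in the 72 h groups with R1881, at 178 CPM with and without SNX631.

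No inhibitor effect on SOX12 was called. Without R1881 it was -0.09 (95% interval -0.16 to -0.02, adjusted p = 0.0491) for Senexin B and -0.12 (-0.19 to -0.05, adjusted p = 0.00795) for SNX631, the latter past the limit on p and far under that on fold. With R1881 it was 0.07 (0.002 to 0.15, adjusted p = 0.124) and -0.01 (-0.08 to 0.05, adjusted p = 0.762). The SOX12 difference with R1881 alone was 0.01 ± 0.04 at 24 h (-0.07 when scaled by library totals) and 0.11 ± 0.04 at 72 h (0.003 by totals). With an inhibitor present it was 0.17 ± 0.04 at 24 h and 0.21 ± 0.03 at 72 h (down to 0.095 and 0.099 under other processing). The interactions were 0.16 ± 0.05 and 0.10 ± 0.05. NRSN2-AS1 runs across SOX12 on the opposite strand with 102 to 522 counts a library, and whether counting used strand is not given in the sources used here.

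SOX13 (ENSG00000143842.15, chromosome 1, positions 204073115 to 204127743, forward strand) stayed at 20.4 to 29.5 CPM in all 28 libraries. Its one group apart from the next in order was R1881 with Senexin B, at 27.5, 29.3 and 29.5 CPM. The 24 h R1881 group below it held 27.0, 26.4 and 22.4 CPM.

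Inhibitor effects on SOX13 were -0.03 (95% interval -0.18 to 0.11, adjusted p = 0.781) and -0.01 (-0.15 to 0.12, adjusted p = 0.905) without R1881, for Senexin B and SNX631. They were 0.19 (0.03 to 0.34, adjusted p = 0.0665) and 0.02 (-0.11 to 0.15, adjusted p = 0.847) with R1881. With R1881 alone the SOX13 differences were 0.12 ± 0.07 at 24 h and 0.10 ± 0.07 at 72 h (-0.004 by library totals). With an inhibitor present they were 0.34 ± 0.08 and 0.13 ± 0.07 (down to 0.256 and 0.022 under other processing). The interactions were 0.22 ± 0.11 and 0.03 ± 0.09. The intervals of the inhibitor effects bound any SOX13 response to inhibitor inside the 1.5-fold limit.

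The wider family was taken as a list of 19 SOX genes, of which 7 passed the filter on low counts, and the passing ones include the members. Per kilobase of exon, group means of SOX4 were 31.1 to 123 CPM and those of SOX12 32.96 to 38.5, well above the rest. SOX8 had 1.83 to 6.90, SOX9 0.564 to 4.20, SOX13 2.97 to 3.88, SOX11 0.746 to 1.11 and SOX6 0.0352 to 0.0901 CPM per kilobase. SOX9 thus moved from under SOX8 and SOX13 in the vehicle groups to the level of SOX13 or above with both agents. The other 12 genes (SOX1, SOX2, SOX3, SOX5, SOX7, SOX10, SOX14, SOX15, SOX17, SOX18, SOX21 and SOX30) never exceeded 6.5 counts in a library, and SOX1, SOX10, SOX14 and SOX17 were at 0 in all.

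**Figure D3:**
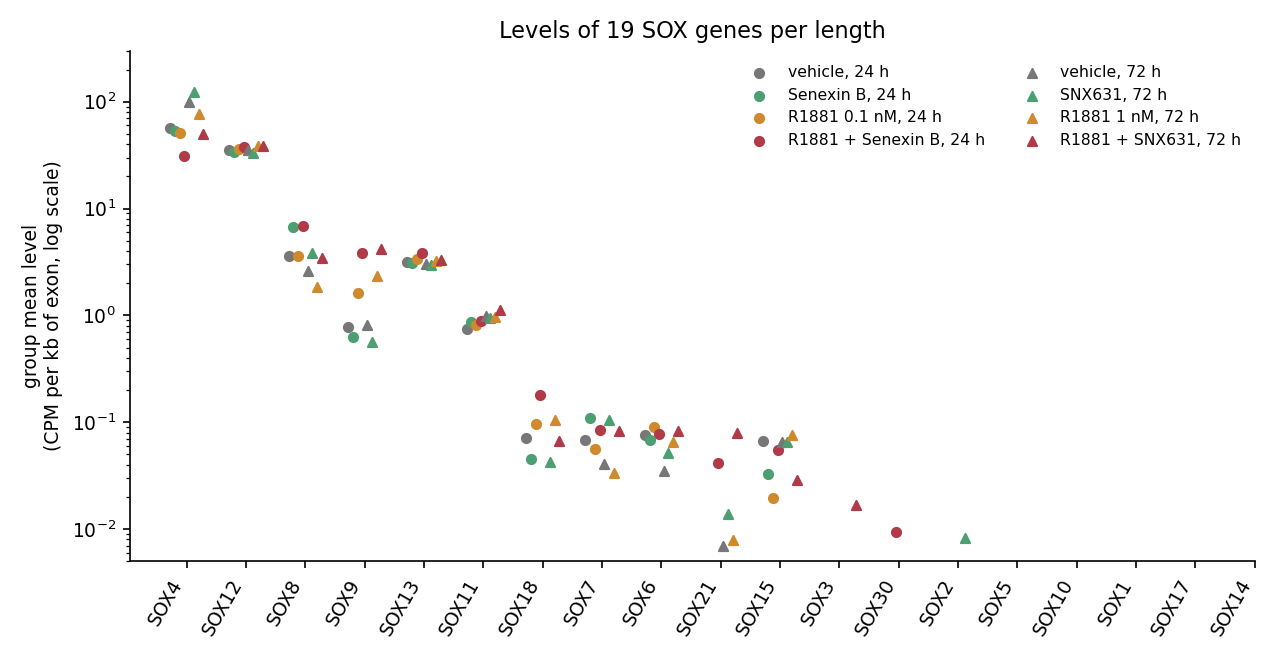
Group mean levels of the 19 listed SOX genes in CPM per kilobase of exon (vertical axis, log scale) with 1 point per treatment group, circles for 24 h and triangles for 72 h. Means under 0.005 are not drawn, and SOX4 and SOX12 stand above 30 in every group while SOX9 spans 0.564 to 4.20.

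SOX8, the close relative of SOX9 that can stand in for it in several tissues, rose with Senexin B in either state and with SNX631 in the presence of R1881, and no androgen effect on it was called. At 24 h it held 17.9, 15.2 and 14.5 CPM in vehicle libraries and 29.1, 31.1 and 29.8 CPM with Senexin B. With R1881 it held 17.7, 15.2 and 15.4 CPM, and with both agents 28.9, 32.8 and 30.0 CPM. The libraries fell into those with Senexin B and those without, whatever the androgen.

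Senexin B raised SOX8 by 0.96 ± 0.07 on the log2 scale without R1881 (adjusted p = 7.20e-12) and by 0.92 ± 0.08 with it (adjusted p = 2.87e-10), with an interaction of -0.04 ± 0.11 (adjusted p = 0.923). At 72 h the vehicle libraries held 12.1, 11.1, 10.5 and 12.3 CPM and the SNX631 libraries 14.5, 15.8, 18.7 and 18.4. R1881 libraries had 7.15, 8.02, 7.86 and 9.34 CPM and those with both agents 14.5, 14.8, 18 and 13.8. SNX631 raised SOX8 with R1881 by 0.90 ± 0.10 (adjusted p = 2.30e-09), and without it the value was 0.55 ± 0.09 (adjusted p = 6.77e-06), just under the fold limit. The androgen effect on SOX8 at 72 h was -0.51 ± 0.11 (adjusted p = 1.28e-04), also under that limit.

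Of the 6 genes tested other than SOX9, those called with an inhibitor in the presence of R1881 were SOX8 higher (as were 1.61% of all genes at 24 h and 1.89% at 72 h) and SOX4 lower (1.5 and 2.24%). SOX9 passed the same limits there, which follows from the way it was chosen. In its absence SOX8 alone was called for Senexin B, in a contrast where 3.79% of all genes were, and none was called for SNX631 (4.77% of all genes), where edgeR gave 3 of the 6 genes other than SOX9 at an unadjusted p under 0.05 and the DESeq2 Wald test called none either. Without replicate 1 of the SNX631 group that count was 1. For R1881 alone SOX9 was the one gene called at each time, against 19 and 19.8% of all genes, and without replicate 3 of the vehicle or of the R1881 group at 72 h a further SOX gene was. For R1881 under inhibitor SOX9 and SOX4 were called, against 18.9 and 22%. The same pair was called for the interactions, against 0.577 and 1.19%. Because SOX9 was chosen on these contrasts, nothing is read from the last 3 counts.

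SOX11, the third SOXC gene, lay at 4.70 to 10.4 CPM over all libraries and was called in no contrast. SOX6, a SOXD gene that pairs with SOX9 in cartilage, was read with at most 45 counts and lay at 0.691 to 1.77 CPM in group means. Its vehicle level was lower at 72 h, where it had 6 to 13 counts a library, by 1.02 ± 0.31 on the log2 scale (adjusted p = 0.00437). In that contrast 2 of 7 family genes were called, SOX4 and SOX6, against 5.97% of all genes. The count fell to 1 without replicate 1 or 3 of the 24 h vehicle group or replicate 1, 2 or 4 of the 72 h one.

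**Figure D4:**
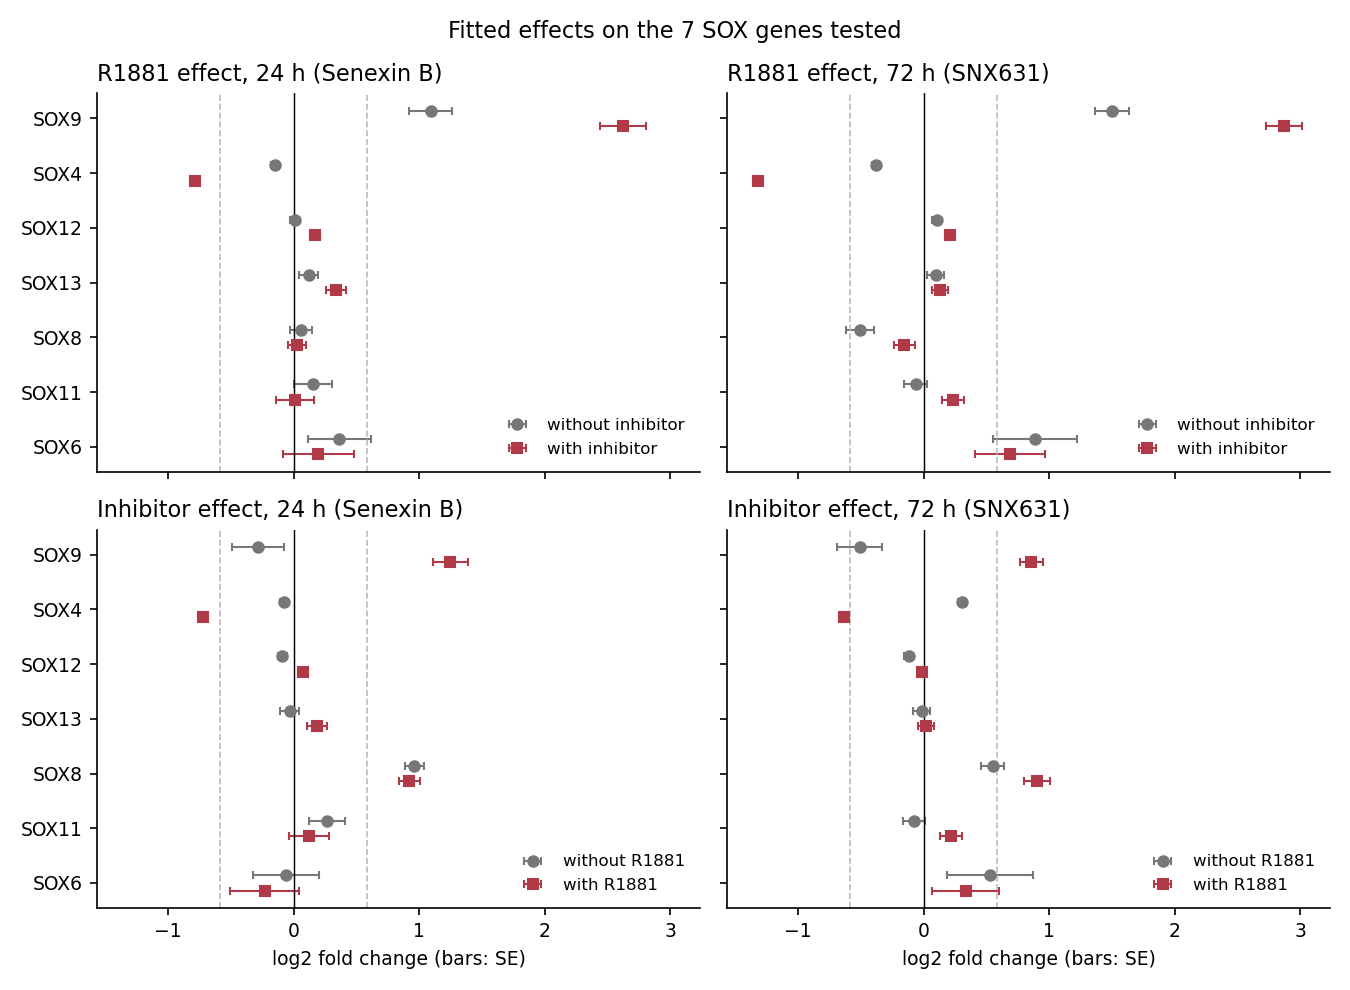
Fitted log2 fold changes (horizontal axis, bars are the SE) of the 7 SOX genes tested, with androgen effects in the upper panels and inhibitor effects in the lower ones, 24 h on the left and 72 h on the right. Grey circles are effects without the other agent, red squares effects with it and dashed lines the 1.5-fold limit, and the SOX9 and SOX4 squares lie on opposite sides of 0 in all 4 panels.

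Lists of genes that SOX9 and SOX4 are reported to act on were read beside them. Of 13 cartilage matrix genes, classical SOX9 targets, 2 passed the filter, COL9A2 and COL9A3. Neither was called higher in an androgen or inhibitor contrast, where 3.12 to 22% of all genes were called in either direction. With 2 genes nothing is read from that absence. COL9A3 was called lower for R1881 alone at 72 h (19.8% of all genes called) and for SNX631 without R1881 (4.77%). COL9A2, a collagen IX chain, fell with R1881 by 1.43 ± 0.15 on the log2 scale at 24 h and by 1.06 ± 0.13 at 72 h (adjusted p = 2.94e-10 and 5.00e-09). Under inhibitor it fell by 1.43 ± 0.18 and by 1.44 ± 0.14 (adjusted p = 1.54e-08 and 4.04e-12), with interactions of 0.01 ± 0.24 and -0.39 ± 0.19 that were not called. The list had medians of -1.03 and -0.99 for R1881, but of 2 genes, against -0.02 and -0.01 over all genes.

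Of 10 Wnt receptors and factors, some of them reported as SOX9 targets in prostate cancer, 8 were tested. R1881 alone raised 1 and lowered 2 at each time, where 19 and 19.8% of all genes were called, and the median of the 8 was -0.23 and -0.05 against -0.02 and -0.01 over all genes. FZD5, a Wnt receptor, rose in log2 terms by 1.48 ± 0.06 at 24 h and 2.17 ± 0.07 at 72 h (adjusted p = 6.17e-20 and 8.26e-27). LEF1, a nuclear partner of beta-catenin, fell by 1.16 ± 0.12 and by 1.29 ± 0.09 (adjusted p = 3.88e-10 and 9.47e-16), and the related TCF7L2 fell by 0.87 ± 0.11 and by 0.74 ± 0.11 (adjusted p = 3.24e-08 and 3.21e-07).

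With inhibitor the FZD5 effect of R1881 was 1.15 ± 0.06 and 1.47 ± 0.07 (adjusted p = 1.15e-16 and 9.15e-22). The interaction of -0.70 ± 0.10 at 72 h was called (adjusted p = 1.85e-06) and that of -0.33 ± 0.09 at 24 h was not (adjusted p = 0.0285). LEF1 fell with R1881 under inhibitor by 1.75 ± 0.12 and by 2.10 ± 0.09 (adjusted p = 6.05e-15 and 2.97e-23), and its interaction of -0.81 ± 0.13 at 72 h was called (adjusted p = 1.67e-05), while that of -0.59 ± 0.17 at 24 h was not (adjusted p = 0.0433). The interaction was thus called for 0 of the 8 genes at 24 h and 2 at 72 h, against 0.577 and 1.19% of all genes. No gene of this list was called with a positive interaction at either time. Of all genes 39 of 15948 and 60 of 16074 were, so nothing is read from that absence among 8 genes.

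Of 8 reported SOX4 targets, 7 were tested at 24 h and all 8 at 72 h. R1881 alone raised 3 and lowered 1 at 24 h, and raised 2 and lowered 1 at 72 h, where 19 and 19.8% of all genes were called. The list's medians were -0.01 and -0.21. EGFR, a growth factor receptor, rose by 1.33 ± 0.06 and 1.24 ± 0.05 on the log2 scale (adjusted p = 6.72e-20 and 3.00e-22), and EZH2, the histone H3 methyltransferase of Polycomb, rose by 1.14 ± 0.07 and 0.72 ± 0.06 (adjusted p = 4.86e-16 and 1.12e-12).

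In the presence of R1881, Senexin B and SNX631 raised SEMA3C, a secreted semaphorin, by 0.64 ± 0.05 and 0.89 ± 0.04 (adjusted p = 1.52e-12 and 1.32e-21). Without R1881 the SEMA3C values were 0.57 ± 0.05 and 0.49 ± 0.04 (adjusted p = 9.87e-10 and 4.76e-13), under the fold limit. SEMA3C was the 1 of 7 genes of the list called with R1881 at 24 h, and at 72 h it and TEAD2, which fell, were 2 of 8, against 3.12 and 4.12% of all genes. R1881 under inhibitor raised 3 and lowered 2 of the list at 24 h, and raised 2 and lowered 4 at 72 h, against 18.9 and 22% of all genes called in either direction. The list's medians there were -0.225 and -0.552, against -0.011 and -0.014 over all genes. EGFR rose there by 1.81 ± 0.06 and 1.65 ± 0.05 (adjusted p = 5.04e-23 and 2.16e-26), and SEMA3C by 1.45 ± 0.05 and 0.61 ± 0.03 (adjusted p = 2.06e-22 and 1.76e-18). TEAD2, a partner of YAP, fell by 0.79 ± 0.15 and by 1.11 ± 0.09 (adjusted p = 3.90e-05 and 1.87e-13). The interaction was called for 0 of 7 genes of the list at 24 h and for 2 of 8 at 72 h, TUBB3 and TEAD2, each negative. Of all genes 0.577 and 1.19% were called.

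The genes most like SOX9 were sought among 9916 protein-coding genes tested in both experiments, each with a mean of at least 10 CPM. Likeness was Pearson's r of log2 CPM, each library less the vehicle mean of its experiment, over the 28 libraries. The closest were APLP2 (r = 0.978), CD164 (0.972), NR4A1 (0.971), PIR (0.969) and RTN1 (0.969). The libraries fall into treatment groups and share their vehicle means, so these values describe likeness of a group pattern and carry no test. NR4A1, an orphan nuclear receptor, was nearest in size, at 8.26, 8.29, 20 and 35.4 CPM in the 24 h vehicle, Senexin B, R1881 and combined groups and 9.28, 8.68, 29.7 and 42.2 CPM in those of 72 h.

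Within the family r with SOX9 was -0.933 for SOX4, 0.771 for SOX12, 0.654 for SOX13 and -0.0383 for SOX8. It was not computed for SOX11 and SOX6, whose means were under 10 CPM. APLP2, an amyloid precursor-like membrane protein, spanned group means of 409 to 857 CPM, and CD164, a membrane sialomucin, 358 to 670 CPM. PIR, an iron-binding nuclear protein, ran from 19.1 to 47.1 CPM and RTN1, a reticulon of the endoplasmic reticulum, from 16 to 50.3 CPM. All 5 were, like SOX9, highest with R1881 and inhibitor in each experiment, which follows from their choice by r with SOX9.

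**Figure D5:**
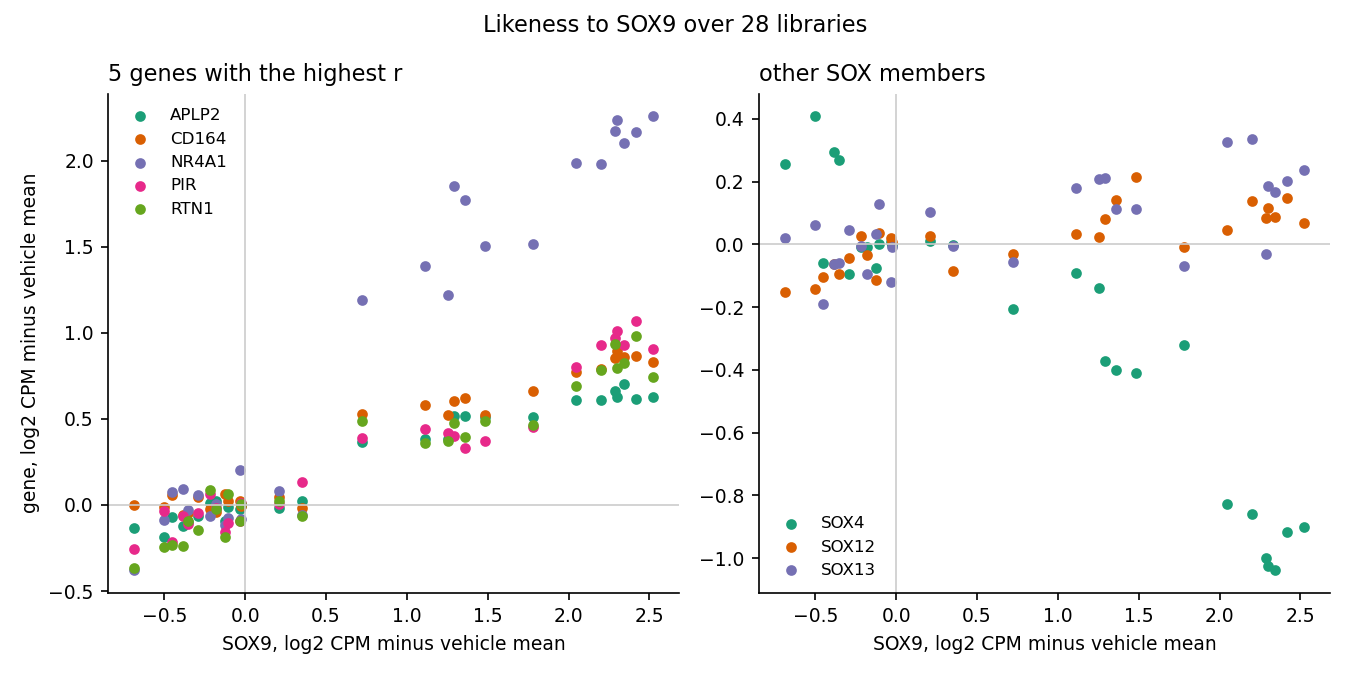
Log2 CPM of each library less the vehicle mean of its experiment, SOX9 on the horizontal axis and another gene on the vertical one, with 1 point per library and gene. The left panel has the 5 genes with the highest r (0.969 to 0.978) and the right panel has SOX4, which falls as SOX9 rises (r = -0.933), SOX12 and SOX13, on a narrower vertical scale.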

How the data were processed

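Total RNA of LNCaP cells was sequenced from directional libraries, and the authors deposited estimated counts per gene in which reads on several genes are shared as fractions (16.9% of values above 0), with no scaling for depth. The submitters' processing notes name cutadapt 2.8, STAR 2.7.2b, featureCounts, Subread 2.0.3 and FastQC. The notes name GRCh38.p13, and gene positions and exon lengths are from GENCODE 29, matched by identifier without version. Of the member values, 4 of 112 were fractional.

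Counts were rounded and fitted for each experiment alone (12 and 16 libraries) in R 4.3.3 with edgeR 4.0.16 (TMM, filterByExpr with a minimum count of 10 and total of 15, quasi-likelihood test). The Benjamini-Hochberg adjustment ran over all 15948 genes at 24 h and 16074 at 72 h, and genes were called at an adjusted p under 0.01 and a fold over 1.5. Differences between experiments, and of vehicle groups, came from a fit of all 28 libraries (16672 genes). Errors of fold changes are Wald SEs and intervals follow from them. Libraries of a group differed by more than sampling noise (chi-square per degree of freedom 1.20 to 2.48) and were all kept. The study describes its replicates as biological, and the labels do not say which culture each came from, so p values measure the spread between these libraries. Counting errors cover sampling of reads only, since reads are not independent molecules.

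Members, lists and tests were chosen with earlier results of these data known. Named genes are the members, the SOX family, KLK3, the 5 genes most like SOX9 and, per list and contrast, up to 3 with the largest change among genes called in the same direction at 24 h and 72 h. Alternatives were other scalings, filters and limits, DESeq2 1.42.0, a replicate block and leaving out each library. Code was tested on simulated data. Figures used matplotlib 3.10.9 in Python 3.11.15.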

Additional observations from a re-analysis of the deposited data

Results flagged for a closer look

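In the 28 sets of 4 libraries that the 7 tested SOX genes have at 72 h, the gap of an end library to its neighbour passed Dixon's 95% critical value in 2, and chance gives about 1 in 20. Replicate 3 of the vehicle group held 155.6 CPM of SOX12, under the 167 to 169 CPM of the others. Replicate 2 of R1881 with SNX631 held 21.71 CPM of SOX13, under 24.9 to 25.5 CPM.

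The SOX4 inhibitor effect without R1881 differed between the experiments by 0.383 on the log2 scale (adjusted p = 4.21e-08 by edgeR), with every Senexin B library below its vehicle group (-0.077) and every SNX631 library above its own (0.304).

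Some inhibitor effects took opposite directions in all libraries without and with R1881, and these differences were not tested here because the interactions were used in choosing the genes. SOX4 at 72 h had 0.304 without R1881 and -0.63 with it. SOX12 at 24 h had -0.089 and 0.074. SOX9 at 72 h had -0.51 and 0.858.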

How the results depend on the processing

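Of 1690 values computed under alternatives, 19 were tested effects that changed sign, 4 were tested effects that newly passed a limit, none was a lost call, and 30 were counts or untested values that moved by more than 1.5 times or by more than 1 SD between replicates. All SOX9 values moved by less than that SD, though the vehicle difference, 0.09, ran from -0.131 to 0.167. Among tested effects, near-zero and uncalled ones of SOX12 and SOX13 changed sign. Without 1 library, SOX13 ran from -0.07 to 0.048 for Senexin B without R1881, -0.054 to 0.026 for SNX631 without it, -0.026 to 0.072 for SNX631 with it and -0.066 to 0.072 for the difference between experiments without R1881. Likewise SOX12 ran from -0.048 to 0.025 for SNX631 with R1881 and -0.006 to 0.035 for the vehicle contrast. By library totals SOX13 was -0.014 for SNX631 with R1881, and with no filter SOX12 was 0.004 there and -0.018 for the vehicle contrast.

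An adjusted p under 0.05 with no fold limit added SOX12 for Senexin B (-0.089) and SNX631 (-0.117) without R1881, SOX4 for SNX631 without R1881 (0.304) and the SOX4 difference between experiments (0.383). The family genes called then numbered 2 of 7 for Senexin B and 4 for SNX631 without R1881 (35.8 and 36.5% of all genes), 2 and 5 for R1881 alone at 24 h and 72 h (58.4 and 62.1%), 4 and 5 under inhibitor (57.4 and 65.7%), 2 for the difference between experiments without R1881 (4.61%) and 4 for the vehicle contrast (42.8%). For R1881 alone at 72 h, library totals or no filter gave 2 in place of 1. For the vehicle contrast the DESeq2 Wald test gave 1 in place of 2. Without 1 library the counts ran from 0 to 1 for SNX631 without R1881, from 1 to 2 for R1881 alone at 72 h and from 1 to 2 for the vehicle contrast.

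Scaling by library totals gave a median over all genes for R1881 alone of -0.093 (24 h) and -0.116 (72 h) in place of -0.016 and -0.014, and higher calls then made up 1356 of 3167 and 1299 of 3420, against 1565 of 3030 and 1559 of 3185. Deviations of same-numbered libraries correlated by -0.0217 to 0.0678 at 24 h, with a mean of 0.016 against -0.00802 for different numbers. There 9 of 12 libraries were closest to their own number, so a weak pairing by number may exist in that experiment. At 72 h the correlations were -0.0549 to 0.0622, with a mean of -0.00735 against 0.00246. There 2 of 16 libraries were closest to their own number, which shows no pairing. The fit with the replicate block gave -0.029 for SOX12 and 1 family gene in place of 2 in the vehicle contrast, and changed no other call. The causes of these changes were not tested. Of the 4 members SOX9 had the lowest counts, 22 to 240 a library.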
